A study of Homo sapiens with 160 samples.

Results

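The response of airway epithelial cells to the glucocorticoid mometasone after 18 h was followed with RNA sequencing of BEAS-2B, an immortalised human bronchial epithelial cell line whose labelled genotype is WT. The comparison has 3 libraries of cells given mometasone alone at 100 nM (replicates 2, 3 and 4) and 4 libraries of cells given vehicle alone (replicates 2 to 5), so 7 of the 160 samples of the series, of which 150 have values in use. They are the libraries labelled mometasone or vehicle at 18 h, without those that the authors marked as excluded and those headed 8 h. All cells of both groups were grown to confluence in medium with serum and then held overnight without serum, and they carried no other agent. For comparison over time, the earlier groups (1, 2 and 6 h) of the same treatments were used. Other 18 h groups were mometasone with indacaterol (a long-acting β2-agonist, 100 nM, n = 4), with carbachol (a muscarinic agonist, 10 µM, n = 4) and with both (n = 3), against the same agents without mometasone (n = 5, 5 and 4). BEAS-2B is 1 cell line, and no label names separate cultures for the replicates. The p-values therefore rest on sample-to-sample spread that could be technical.

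Glucocorticoids such as mometasone enter the cell and bind the glucocorticoid receptor, a transcription factor held in the cytoplasm by heat shock chaperones. The bound receptor moves to the nucleus, where it switches on genes that carry its DNA element and lowers the activity of the pro-inflammatory factors NF-kB and AP-1. In the airway epithelium this is the basis of inhaled asthma therapy, and an exposure of many hours also reaches genes that are controlled by the first targets.

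The values are 1 number per gene and library, normalised as deposited, and a fold change below is 2 to the power of the difference in log2(value + 1), so changes of low genes come out too small. Sums of values per library lay between 888487 and 910728 with mometasone, and between 928977 and 951362 for vehicle replicates 2 to 4. Vehicle replicate 5 stood apart with a sum of 1251034, and no mometasone library of that replicate number is in use, so counts that differ without it are also given without it. Of 13067 genes tested with limma, 595 were called higher with mometasone (4.55%) and 736 lower (5.63%), together 10.2%, at an adjusted p below 0.05, and of these 237 rose (1.81%) and 229 fell (1.75%) by at least 2-fold. Without vehicle replicate 5 the calls were 415 higher (3.18%) and 609 lower (4.66%), together 7.84% of genes, and 947 of the 1331 calls were shared. Without mometasone replicate 3, 373 genes were called higher. Scaling each library to an equal sum gave 759 higher and 384 lower, so that 66.4% of calls were higher, against 44.7% as reported, and moved the median log2 change of all genes to 0.21, against 0.05 as deposited. For 19.7% of the genes tested, the values of the groups did not overlap.

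The label airway epithelial was checked against marker genes. The keratin genes KRT8 and KRT18 were the main epithelial markers detected, while KRT19, EPCAM and TP63 stayed at or below 0.56 in all 7 libraries. CDH1, the epithelial cadherin gene, was low, at 0.89 to 2.38 with mometasone and 1.74 to 5.65 with vehicle. The summed level of the 8 epithelial markers was 280.8 to 327.8 with mometasone and 486.6 to 923.1 with vehicle. VIM, a mesenchymal intermediate filament gene, lay between 1312.3 and 1624.5 with mometasone and between 1668.4 and 1832.6 with vehicle. Of 10 markers of other lung cells, 2 passed the filter on low values and neither was called, and their summed level was 2.98 to 4.6 with mometasone and 1.73 to 3.82 with vehicle. In bulk samples, fewer cells of a type and less RNA per cell cannot be told apart.

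Established target genes of the glucocorticoid receptor were higher after 18 h. TSC22D3 (GRCh38 chromosome X, 107713221 to 107777342, minus strand), which encodes GILZ, an anti-inflammatory leucine zipper protein and direct receptor target, had 362, 331 and 397 in the mometasone libraries, against 7.86, 7.10, 7.08 and 7.98 in the vehicle libraries. The libraries separated completely, and the gene rose 42.7-fold (log2 change 5.42, SE 0.27, adjusted p = 1.2e-36). FKBP5, which encodes a co-chaperone that lowers the hormone affinity of the receptor, had 145, 152 and 159 in the mometasone libraries, against 22.6, 21.2, 20.4 and 15.3 in the vehicle libraries. It rose 7.39-fold (log2 change 2.89, SE 0.19, adjusted p = 1.3e-26), again without overlap. PER1, a circadian clock gene with a receptor element, had 78.6, 97.4 and 105 in the mometasone libraries, against 25.5, 24.5, 32.6 and 24.4 in the vehicle libraries, and rose 3.41-fold without overlap (log2 change 1.77, SE 0.19, adjusted p = 2.6e-13). NR3C1, the gene of the receptor itself, had 28.4, 32.6 and 31.8 in the mometasone libraries, against 46.6, 67.7, 48.5 and 26.8 in the vehicle libraries. These ranges overlapped, with vehicle replicate 5 lowest of all, and the difference did not pass the test (log2 change -0.53, adjusted p = 0.405), nor did it without that library (-0.77, adjusted p = 0.258).

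A list of 32 glucocorticoid targets held 27 genes that passed the filter on low values. Of these, 24 rose and 0 fell, against 4.55% and 5.63% of all genes, with a median log2 change of 1.6, against 0.05 over all genes tested. Without vehicle replicate 5, 22 rose. The list holds genes known from other work and from these data, so its direction is no independent evidence. Beside TSC22D3, the largest rises were those of CNR1, RGCC and ZBTB16. CNR1, RGCC and ZBTB16 passed the filter only through the mometasone libraries, so the count of rises is a description. CNR1 (GRCh38 chromosome 6, 88139864 to 88166359, minus strand) encodes the cannabinoid receptor CB1 and had 34.7, 45.1 and 36.4 in the mometasone libraries, against 0.03, 0.38, 0 and 0.08 in the vehicle libraries. The gene was near 0 in all vehicle libraries and rose 35.5-fold (log2 change 5.15, SE 0.28, adjusted p = 1.64e-32). RGCC, a regulator of cell cycle kinase activity, had 20.4, 20.8 and 18.1 in the mometasone libraries, against 0.46, 0.92, 1.43 and 0.69 in the vehicle libraries (log2 change 3.49, adjusted p = 8.12e-16). ZBTB16, which encodes the transcriptional repressor PLZF, had 7.82, 14.9 and 8.94 in the mometasone libraries, against 0.08, 0.14, 0.08 and 0.06 in the vehicle libraries (log2 change 3.36, adjusted p = 6.42e-30). The 3 members that did not pass were SGK1 (log2 change 0.98, adjusted p = 0.0519), RGS2 (0.44, 0.229) and TNFAIP3 (0.18, 0.878).

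The 250 bases before gene starts were read from RefSeq (GRCh38.p14) to show what lies in front of genes on which the results turn. Capitals mark a match to ACANNNTGT, the inner part of the glucocorticoid receptor element (AGAACA, 3 bases of any kind, TGT, 1 base of any kind and CT), searched on both strands. Of the 14 largest rises 7 had an entry, and TSC22D3 is the 1 gene among these with a match, so its window is shown. It has 4 listed starts, and 1 of them has a match to this core, 208 bases before the start:
TSC22D3 (chrX:107775788-107776037, minus strand): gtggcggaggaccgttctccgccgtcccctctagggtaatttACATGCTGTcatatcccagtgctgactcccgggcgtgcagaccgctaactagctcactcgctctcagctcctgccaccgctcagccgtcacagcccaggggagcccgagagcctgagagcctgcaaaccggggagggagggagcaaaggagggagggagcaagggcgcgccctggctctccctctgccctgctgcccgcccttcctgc

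Oxidases were among the other large rises. CYP4B1, a cytochrome P450, had 65.6, 99.1 and 77.0 in the mometasone libraries, against 0.54, 1.44, 1.81 and 1.85 in the vehicle libraries, a 34.3-fold rise (log2 change 5.10, SE 0.29, adjusted p = 2.28e-31). AOX1, aldehyde oxidase, had 76.1, 72.8 and 79.4 in the mometasone libraries, against 4.52, 5.82, 4.20 and 2.26 in the vehicle libraries, and rose 15.3-fold (log2 change 3.94, SE 0.41, adjusted p = 1.92e-14). MAOA, the mitochondrial monoamine oxidase A, had 63.6, 70.3 and 68.9 in the mometasone libraries, against 7.42, 6.08, 6.43 and 3.79 in the vehicle libraries, and rose 10.1-fold (log2 change 3.34, SE 0.29, adjusted p = 6.33e-19). For each of these 3 oxidases every mometasone library lay above every vehicle library.

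SAA1, which encodes the acute phase protein serum amyloid A (GRCh38 chromosome 11, 18266174 to 18269977, plus strand), had 144, 103 and 121 in the mometasone libraries, against 3.42, 0.97, 3.01 and 6.57 in the vehicle libraries, a 30.4-fold rise (log2 change 4.93, SE 0.46, adjusted p = 9.53e-17). SAA2, a near-identical neighbour, had 9.60, 3.02 and 6.57 in the mometasone libraries, against 0, 0.26, 0.63 and 0.42 in the vehicle libraries, and how reads were shared between the pair is uncertain. SCNN1A, the α subunit of the epithelial sodium channel, had 21.4, 36.2 and 27.5 in the mometasone libraries, against 1.31, 2.12, 1.32 and 1.26 in the vehicle libraries, and rose 11.6-fold (log2 change 3.54, SE 0.33, adjusted p = 1.42e-16). The channel gene was low without mometasone and showed no overlap. ABCA8, a lipid transporter, rose 11.1-fold, PRODH, the first enzyme of proline breakdown, 11-fold, METTL7A, a methyltransferase-like protein gene, 10.9-fold, and MARCHF10, a ubiquitin ligase of the MARCH family, 13.2-fold. IGHV3-74, an immunoglobulin heavy chain variable segment, had 6.40, 9.61 and 6.63 in the mometasone libraries and was listed at 0 in all 4 vehicle libraries, so no fold is given (adjusted p = 1.32e-25). None of these 14 genes lost its call without any 1 of the 7 libraries.

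**Figure D1:**
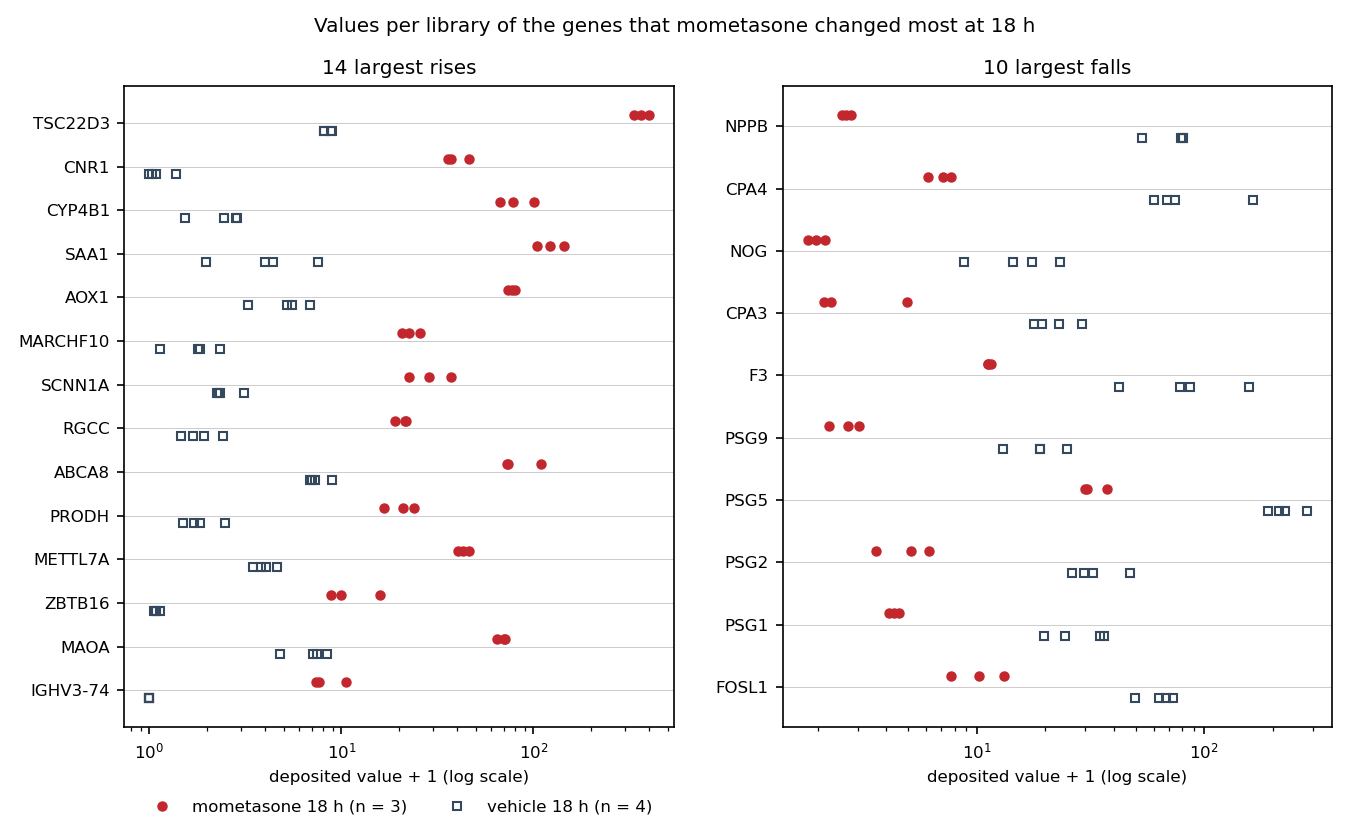
Deposited value + 1 (log axis) of the 14 largest rises and the 10 largest falls, 1 point per library, with mometasone at 18 h (n = 3) above vehicle at 18 h (n = 4) for each gene. No gene shown has groups that overlap, and TSC22D3 lies at 331 to 397 with mometasone and 7.08 to 7.98 with vehicle. The genes were picked for large called changes with the same direction in all same-numbered pairs, so their separation is a description.

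Genes of secreted peptides, peptidases and AP-1 were among the largest falls. NPPB (GRCh38 chromosome 1, 11857464 to 11858931, minus strand), which encodes brain natriuretic peptide, had 1.66, 1.57 and 1.80 in the mometasone libraries, against 52.3, 80.1, 78.0 and 79.5 in the vehicle libraries. It was 27.1-fold lower with mometasone (log2 change -4.76, SE 0.30, adjusted p = 9.76e-28), and its mometasone values lay far below the lowest vehicle library, replicate 2. CPA4 (GRCh38 chromosome 7, 130293134 to 130324180, plus strand), a secreted carboxypeptidase, had 6.73, 5.11 and 6.09 in the mometasone libraries, against 67.6, 162, 58.9 and 73.4 in the vehicle libraries. It was 12.1-fold lower (log2 change -3.6, SE 0.27, adjusted p = 2.47e-22), with no overlap although vehicle replicate 3 was far above the other vehicle libraries. CPA3, a related carboxypeptidase known from mast cells, had 3.92, 1.29 and 1.13 in the mometasone libraries, against 18.3, 28.1, 16.9 and 22.0 in the vehicle libraries, 7.60-fold lower (log2 change -2.93, SE 0.24, adjusted p = 3.59e-20).

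NOG, the secreted BMP antagonist noggin, had 0.96, 0.81 and 1.16 in the mometasone libraries, against 13.5, 22.4, 16.5 and 7.80 in the vehicle libraries, and was 7.66-fold lower (log2 change -2.94, SE 0.32, adjusted p = 2.2e-13). F3 (GRCh38 chromosome 1, 94529225 to 94541800, minus strand), tissue factor, which starts coagulation, had 10.6, 10.3 and 10.2 in the mometasone libraries, against 77.2, 156, 85.6 and 41.2 in the vehicle libraries. The mometasone libraries were nearly alike while the vehicle libraries spread widely, and the gene was 7.20-fold lower (log2 change -2.85, SE 0.36, adjusted p = 1.66e-10). FOSL1, which encodes the AP-1 subunit FRA1, had 9.19, 6.75 and 12.1 in the mometasone libraries, against 72.1, 48.7, 62.3 and 67.2 in the vehicle libraries, 6.21-fold lower without overlap (log2 change -2.64, SE 0.24, adjusted p = 8.81e-18).

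TGANTCA, the element that AP-1 binds, was searched on both strands in the same RefSeq windows. Of the 10 largest falls, 4 had an entry, and 2 of these, CPA4 and F3, have matches at any listed start while CPA3 and PSG5 have none. The windows with matches are shown, each with a pair in capitals:
CPA4 (chr7:130292911-130293160, plus strand): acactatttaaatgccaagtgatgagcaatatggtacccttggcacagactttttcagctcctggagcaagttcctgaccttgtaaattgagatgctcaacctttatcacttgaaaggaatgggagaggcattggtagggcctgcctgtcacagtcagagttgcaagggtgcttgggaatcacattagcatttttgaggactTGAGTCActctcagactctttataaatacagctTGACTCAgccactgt
F3 (chr1:94541760-94542009, minus strand): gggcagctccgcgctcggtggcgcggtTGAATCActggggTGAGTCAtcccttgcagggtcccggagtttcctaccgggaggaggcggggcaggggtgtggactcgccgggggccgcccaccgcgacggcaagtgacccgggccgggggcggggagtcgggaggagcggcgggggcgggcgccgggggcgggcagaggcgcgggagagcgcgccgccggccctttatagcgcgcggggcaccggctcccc

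The pregnancy-specific glycoproteins, secreted immunoglobulin-like proteins made mainly by the placenta, fell as a family. Of 11 genes of this cluster on chromosome 19, 10 passed the filter and 10 were called lower, against 5.63% of all genes, also without vehicle replicate 5. 9 were called lower after scaling to equal sums. The low members passed the filter only through the vehicle libraries, so the count is a description. PSG5 (GRCh38 chromosome 19, 43166256 to 43186536, minus strand), had 36.3, 29 and 29.5 in the mometasone libraries, against 225, 282, 189.6 and 213 in the vehicle libraries, and was 6.97-fold lower (log2 change -2.80, SE 0.17, adjusted p = 1.14e-28). PSG9 had 1.25, 1.73 and 2.05 in the mometasone libraries, against 17.9, 18.1, 12.1 and 24.0 in the vehicle libraries (6.97-fold lower). In both the groups were far apart. PSG2 had 2.62, 5.17 and 4.16 in the mometasone libraries, against 31.4, 46.0, 25.1 and 28.8 in the vehicle libraries (6.78-fold lower). PSG1 had 3.54, 3.11 and 3.32 in the mometasone libraries, against 23.4, 35.4, 18.8 and 33.9 in the vehicle libraries (6.48-fold lower). In each of the 10 the groups did not overlap, against 19.7% of all genes tested, and the smallest changes were those of PSG3 (-1.12 on the log2 scale) and PSG7 (-0.78), both under 1 in every mometasone library. These genes are near-identical copies of each other, so how reads were shared among them is uncertain, and the members are not independent.

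Of the 11 genes, 3 had a RefSeq entry (PSG3, PSG4 and PSG5), and the windows of these 3 hold the core ACANNNTGT. Those of PSG5 and PSG4 are shown as a pair because the stretch around the match, in capitals, is nearly alike in both:
PSG5 (chr19:43186537-43186786, minus strand): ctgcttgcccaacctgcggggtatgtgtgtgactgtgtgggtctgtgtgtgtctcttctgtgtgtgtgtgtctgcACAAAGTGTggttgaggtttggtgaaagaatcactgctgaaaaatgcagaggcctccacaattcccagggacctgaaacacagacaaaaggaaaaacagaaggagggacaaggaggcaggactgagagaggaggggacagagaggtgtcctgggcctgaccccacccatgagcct
PSG4 (chr19:43205639-43205888, minus strand): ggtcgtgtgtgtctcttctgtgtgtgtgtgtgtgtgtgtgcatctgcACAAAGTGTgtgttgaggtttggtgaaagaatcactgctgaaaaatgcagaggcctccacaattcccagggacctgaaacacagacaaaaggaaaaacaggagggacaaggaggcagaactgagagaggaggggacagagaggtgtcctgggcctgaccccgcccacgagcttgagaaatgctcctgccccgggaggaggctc

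Over all genes these short motifs were rare in the 250 bases. Counted at the first listed start of each gene, ACANNNTGT was in 2.69% of 186 promoters of genes called at least 2-fold higher, in 4.88% of 164 promoters of genes called at least 2-fold lower, in 2.31% of 10119 promoters of tested genes and in 4.68% of all 27305. The TSC22D3 match is before another start and is not in these counts. The whole receptor element, which contains the core, was in 0 of the 186, 0 of the 164 and 0.0439% of all. TGANTCA was in 3.23% of the genes higher, 6.1% of those lower, 3.64% of those tested and 6.6% of all. A match is a description of letters, not a binding site.

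Genes of inflammatory signals were mostly too low to test. Of 23 cytokine and chemokine genes 9 passed the filter, and of these 0 rose and 4 fell, against 4.55% and 5.63% of all genes tested, with a median log2 change of -0.61. Without vehicle replicate 5, 3 fell, and without mometasone replicate 4, 2 fell. CCL2, the monocyte chemoattractant, had 16, 9.37 and 16.8 in the mometasone libraries, against 66.7, 47.1, 66.5 and 72.2 in the vehicle libraries, and was 4.33-fold lower without overlap (log2 change -2.11, SE 0.23, adjusted p = 4.54e-13). IL6, interleukin 6, was low and had 0.25, 0.6 and 0 in the mometasone libraries, against 3.29, 3.72, 1.15 and 2.36 in the vehicle libraries (log2 change -1.46, adjusted p = 2.34e-05). It passed the filter only through the vehicle libraries, so the count of falls is a description. LIF (log2 change -0.93) and IL32 (-0.89) fell too. Their calls rested on single libraries: leaving out replicate 4 of either group took the adjusted p of LIF to 0.0614 to 0.0748. That of IL32 was 0.051 to 0.248 without any 1 mometasone library or without vehicle replicate 5.

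Of 16 tested genes of NF-kB subunits and inhibitors, 4 rose and 1 fell, against 4.55% and 5.63% of all genes tested. The counts were 3 and 0 without vehicle replicate 5, and 2 fell without vehicle replicate 3. NFKBIA (GRCh38 chromosome 14, 35401511 to 35404749, minus strand) encodes IκBα, which holds NF-kB in the cytoplasm, and had 67.2, 64.6 and 73.8 in the mometasone libraries, against 24.4, 19.9, 24.3 and 22.8 in the vehicle libraries, a 2.92-fold rise (log2 change 1.55, SE 0.13, adjusted p = 4.99e-20). BIRC3, an inhibitor of apoptosis and ubiquitin ligase of this pathway, had 63.7, 47.1 and 69.6 in the mometasone libraries, against 6.99, 8.34, 12.4 and 5.15 in the vehicle libraries, a 6.81-fold rise (log2 change 2.77, SE 0.32, adjusted p = 1.92e-12). The RNA of both was higher in every mometasone library. RELB, an NF-kB subunit, did not pass (log2 change -0.80, adjusted p = 0.056). NFKBIE, another inhibitor, was called lower (-0.70), but not without vehicle replicate 2 or 5 or mometasone replicate 2 or 3 (adjusted p = 0.0777 to 0.272).

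A further motif, GGGA, 1 base of any kind and TTTCC, to which NF-kB binds, was searched in the same way and was in 0.538% of promoters of genes at least 2-fold higher, 1.22% of those at least 2-fold lower, 0.524% of those tested and 0.546% of all. NFKBIA, which rose, and IL6, which fell, each have 1 match, in capitals:
NFKBIA (chr14:35404750-35404999, minus strand): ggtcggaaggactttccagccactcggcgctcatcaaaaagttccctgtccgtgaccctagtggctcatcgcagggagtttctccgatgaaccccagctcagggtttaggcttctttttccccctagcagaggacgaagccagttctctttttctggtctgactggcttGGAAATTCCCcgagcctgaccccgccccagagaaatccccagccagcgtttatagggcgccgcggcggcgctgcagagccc
IL6 (chr7:22726950-22727199, plus strand): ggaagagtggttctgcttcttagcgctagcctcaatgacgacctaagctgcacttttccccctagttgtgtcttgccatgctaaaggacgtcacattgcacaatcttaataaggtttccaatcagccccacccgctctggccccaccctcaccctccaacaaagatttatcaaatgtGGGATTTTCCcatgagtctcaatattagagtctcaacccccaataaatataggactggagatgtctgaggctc

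Of 10 tested genes of prostaglandin synthesis and signalling, 3 rose and 1 fell (2 and 1 without vehicle replicate 5), against 4.55% and 5.63% of all genes tested. PLA2G4A, the cytosolic phospholipase A2 that releases arachidonic acid, had 11.7, 13.3 and 11.5 in the mometasone libraries, against 0.67, 0.89, 0.69 and 1 in the vehicle libraries, a 7.26-fold rise (log2 change 2.86, SE 0.18, adjusted p = 8.92e-28). HPGD, which inactivates prostaglandins, had 4.64, 3.79 and 4.99 in the mometasone libraries, against 0.55, 0.68, 0.81 and 0.42 in the vehicle libraries, a 3.39-fold rise (log2 change 1.76, SE 0.22, adjusted p = 1.51e-10). PLA2G4A and HPGD reached the filter on low values through the mometasone libraries, so the count of rises is a description. PTGER4, the prostaglandin receptor EP4, was called higher (log2 change 0.86), and its adjusted p was 0.0517 to 0.2 without any 1 of mometasone replicates 2 to 4 or vehicle replicates 2, 4 and 5. ANXA1, annexin A1, an anti-inflammatory mediator known as glucocorticoid-induced in other settings, had 145, 130.5 and 127 in the mometasone libraries, against 229.8, 238, 218 and 281 in the vehicle libraries, 1.79-fold lower without overlap (log2 change -0.84, SE 0.19, adjusted p = 0.000388).

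Among 14 tested feedback regulators of MAP kinases, 2 rose and 2 fell (1 and 2 without vehicle replicate 5), against 4.55% and 5.63% of all genes tested. DUSP1, a phosphatase that switches off p38 and JNK, had 249, 183 and 249.6 in the mometasone libraries, against 64.4, 53.5, 70.9 and 57.6 in the vehicle libraries, a 3.63-fold rise (log2 change 1.86, SE 0.21, adjusted p = 2.21e-12). DUSP5, a nuclear phosphatase of ERK, had 8.71, 5.97 and 8.66 in the mometasone libraries, against 20.3, 14.6, 22.2 and 23.2 in the vehicle libraries (log2 change -1.26, adjusted p = 6.35e-07), and DUSP8, a JNK phosphatase, fell by a like amount (-1.32, adjusted p = 0.000839). ERRFI1, an inhibitor of the EGF receptor, had 49.7, 55.9 and 50.9 in the mometasone libraries, against 23.1, 27.8, 25.1 and 7.38 in the vehicle libraries. Its call (log2 change 1.43, adjusted p = 0.00261) was lost without vehicle replicate 5 (adjusted p = 0.0826).

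**Figure D2:**
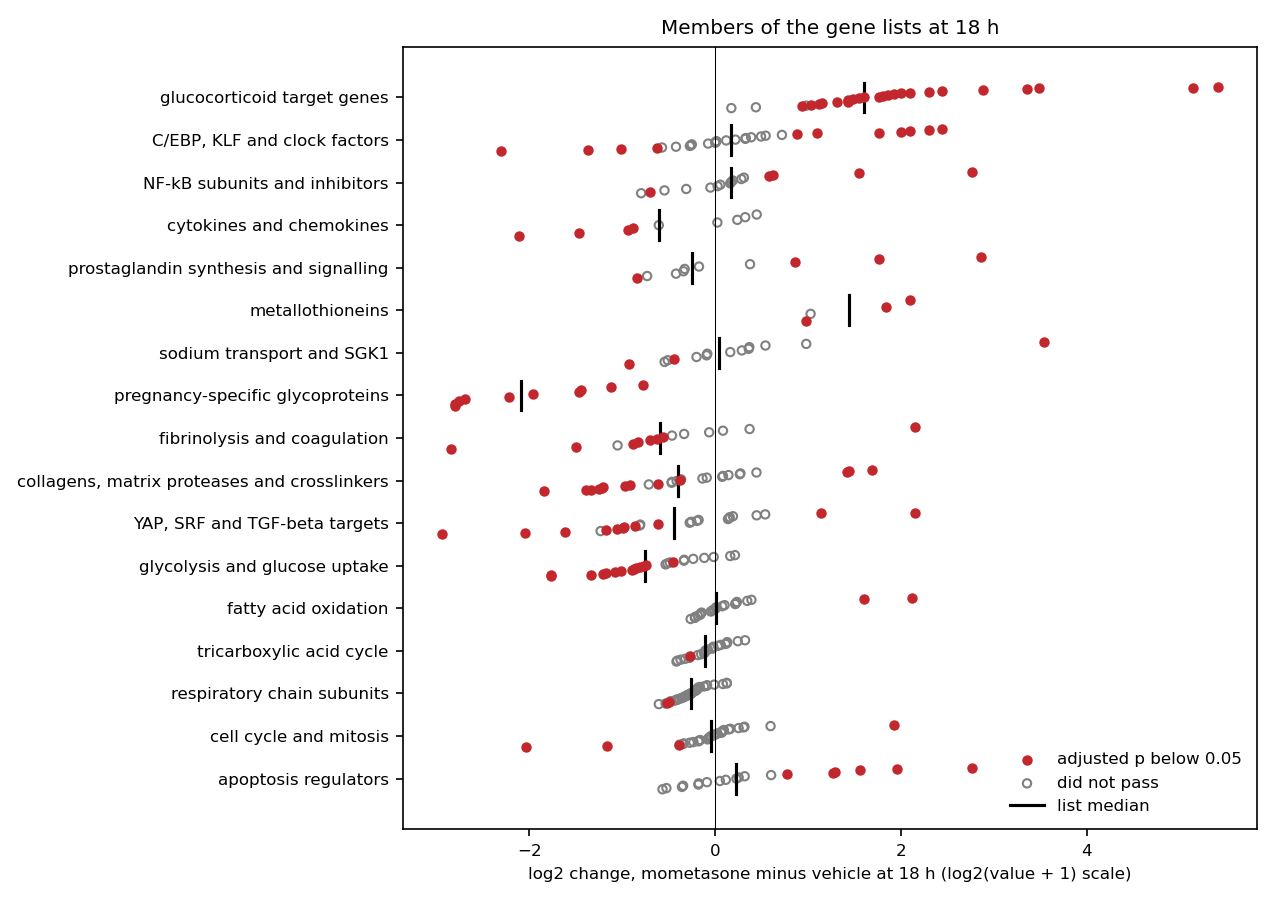
Log2 change of mometasone minus vehicle at 18 h for the tested members of 17 of the 31 gene lists, 1 point per gene, filled where the adjusted p was below 0.05, with the list median as a black bar. The targets of the receptor lie to the right of 0 with a median of 1.6, and the pregnancy-specific glycoproteins to the left with a median of -2.09.

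In the list of C/EBP, KLF and clock factors, 7 of 28 tested genes rose and 4 fell (6 and 4 without vehicle replicate 5), against 4.55% and 5.63% of all genes tested. CEBPB, a C/EBP transcription factor of acute phase and metabolic genes, had 108, 75.8 and 96.6 in the mometasone libraries, against 19.0, 9.41, 17.4 and 21.5 in the vehicle libraries, a 5.45-fold rise (log2 change 2.45, SE 0.29, adjusted p = 6.23e-12). The Krüppel-like factor KLF15, which controls amino acid metabolism, had 24.3, 29.8 and 23.8 in the mometasone libraries, against 4.53, 3.81, 4.14 and 5.38 in the vehicle libraries, a 4.94-fold rise (log2 change 2.30, SE 0.23, adjusted p = 1.43e-15). KLF9, a related factor, rose 4.29-fold. BHLHE40, a repressor of the clock that low oxygen induces, had 4.34, 6.06 and 5.14 in the mometasone libraries, against 33.9, 40.4, 39.1 and 13.6 in the vehicle libraries, and was 4.94-fold lower (log2 change -2.30, SE 0.41, adjusted p = 5.94e-06). Among other genes of the clock, DBP (-1.37 on the log2 scale), PER3 (-1.02) and NR1D1 (-0.63) fell, while NFIL3 (1.10) and ARNTL, the gene of the clock activator BMAL1 (0.89), rose.

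Metallothioneins, which bind zinc and other metals, had 4 tested genes of 11, and 3 rose, against 4.55% of all genes tested. MT1X had 131, 79.6 and 139.9 in the mometasone libraries, against 18.9, 27.3, 25.4 and 33.0 in the vehicle libraries, a 4.29-fold rise (log2 change 2.10, SE 0.37, adjusted p = 4.28e-06), and MT1E rose 3.6-fold. MT2A had 2192, 1275 and 2202 in the mometasone libraries, against 784, 751, 872 and 1431 in the vehicle libraries. The groups overlapped through vehicle replicate 5 and mometasone replicate 3, while MT2A was higher with mometasone in each same-numbered pair. The call (log2 change 0.98, adjusted p = 0.0211) was lost without mometasone replicate 2 or 4 or vehicle replicate 2 or 3 (adjusted p = 0.0675 to 0.135). These genes are near-identical in sequence, so how reads were shared among them is uncertain. Of 14 tested genes of sodium transport, 1 rose (SCNN1A) and 2 fell, against 4.55% and 5.63% of all genes tested. Among the falls was NEDD4L, a ubiquitin ligase that removes the sodium channel from the membrane, with 26.8, 29.5 and 24.4 in the mometasone libraries, against 53.7, 46.2, 53.8 and 55.1 in the vehicle libraries (log2 change -0.93, adjusted p = 1.53e-08). Without vehicle replicate 4, 3 rose, and without vehicle replicate 5, 2. SGK1, the kinase that opposes NEDD4L, did not pass. Of 11 tested genes of acute phase and defence, 3 rose (2 without vehicle replicate 5): SAA1, SAA2 and CRISPLD2, a secreted protein with anti-inflammatory action (log2 change 1.16). SAA2 passed the filter on low values only through the mometasone libraries, so this count is a description. The adjusted p of CRISPLD2 was 0.0521 to 0.149 without any 1 library other than vehicle replicate 3.

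Genes of clotting, matrix and attachment were changed in both directions. In fibrinolysis and coagulation, 7 of 14 tested genes fell, against 5.63% of all genes tested. Without vehicle replicate 5, 4 fell, and without mometasone replicate 3, 3 fell. SERPINE2, a thrombin inhibitor, had 15.2, 11.4 and 13.5 in the mometasone libraries, against 38.2, 32.4, 45.9 and 42.2 in the vehicle libraries, and was 2.82-fold lower (log2 change -1.50, SE 0.18, adjusted p = 3.02e-11). PLAT, tissue plasminogen activator, did not pass (log2 change -1.05, adjusted p = 0.0717), and F3 was the largest fall.

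Of 26 tested genes of collagens, matrix proteases and crosslinkers, 3 rose and 10 fell (2 and 10 without vehicle replicate 5), against 4.55% and 5.63% of all genes tested, with a median log2 change of -0.40. COL13A1, a transmembrane collagen, had 2.77, 4.07 and 3.53 in the mometasone libraries, against 15.0, 13.8, 17.3 and 13.6 in the vehicle libraries, and was 3.59-fold lower (log2 change -1.85, SE 0.24, adjusted p = 1.98e-10). TIMP4, an inhibitor of matrix proteases, had 2.4, 2.55 and 1.92 in the mometasone libraries, against 0, 0, 0 and 0.08 in the vehicle libraries (log2 change 1.69, adjusted p = 9.11e-14). It passed the filter on low values only through the mometasone libraries, so the count of rises is a description. TGM2, which crosslinks matrix proteins, rose 2.73-fold. COL8A1, a short-chain collagen, was called higher (log2 change 1.42), with adjusted p = 0.0598 to 0.0838 without mometasone replicate 3 or vehicle replicate 5. Of 20 tested integrins and laminins, 2 rose, ITGA10 (1.98) and ITGA1 (1.75), both subunits of collagen receptors. 4 fell, among them ITGA3, a subunit of a laminin receptor (-0.90, adjusted p = 0.00108), and LAMB3, a chain of laminin-332 (-0.95), whose call was lost without mometasone replicate 3 (adjusted p = 0.142).

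Of 18 tested keratin and junction genes, 1 rose and 5 fell (1 and 4 without vehicle replicate 5), against 4.55% and 5.63% of all genes tested. KRT17, a keratin of stressed and basal epithelium, had 131, 77.4 and 135 in the mometasone libraries, against 488, 499, 537 and 729 in the vehicle libraries, and was 4.97-fold lower (log2 change -2.31, SE 0.29, adjusted p = 1.4e-10). KRT5, a basal cell keratin, was low but higher in every mometasone library, with 1.06, 1.92 and 2.56 in the mometasone libraries, against 0, 0.05, 0.31 and 0.5 in the vehicle libraries (log2 change 1.21, SE 0.26, adjusted p = 0.000181). KRT5 passed the filter on low values only through the mometasone libraries, so the count of rises is a description. KRT80, an epithelial keratin, fell (log2 change -1.07), and KRT7 was at 8.79 to 9.39 with mometasone and at 2.02 to 9.94 with vehicle and did not pass. KRT18 had 182, 156 and 182 in the mometasone libraries, against 316, 304, 292 and 531 in the vehicle libraries (log2 change -1.01, SE 0.23, adjusted p = 0.000499). KRT8, its partner, fell by a like amount (log2 change -0.92), with adjusted p = 0.0569 to 0.0945 without mometasone replicate 3 or vehicle replicate 5, the highest vehicle library for both.

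Among 24 tested targets of YAP, SRF and TGF-β, 2 rose and 9 fell, also without vehicle replicate 5, against 4.55% and 5.63% of all genes tested and with a median log2 change of -0.44. Secreted BMP regulators were among them. BMP4, a growth factor of the TGF-β family, had 30.3, 26.7 and 24.0 in the mometasone libraries, against 84.5, 82.5, 78.1 and 94.6 in the vehicle libraries, and was 3.08-fold lower (log2 change -1.62, SE 0.20, adjusted p = 2.69e-11). GREM1, a BMP antagonist like NOG, had 10.1, 8.76 and 10.3 in the mometasone libraries, against 59.6, 62.7, 55.6 and 16.5 in the vehicle libraries, and was 4.13-fold lower (log2 change -2.05, SE 0.54, adjusted p = 0.00403), with vehicle replicate 5 far below the other vehicle libraries. Of 8 tested genes of EGF receptor ligands and regulators, 1 rose and 3 fell (1 and 4 without vehicle replicate 5). AREG, amphiregulin, had 6.01, 3.22 and 4.80 in the mometasone libraries, against 2.06, 0.85, 2.73 and 1.52 in the vehicle libraries (log2 change 1.04, adjusted p = 0.000875). HBEGF, another ligand, had 1.03, 1.30 and 1.45 in the mometasone libraries, against 4.03, 3.69, 2.62 and 4.10 in the vehicle libraries (-1.02, 8.06e-06), and LRIG1, an inhibitor of the receptor, fell by a like amount (-1.04, 0.000387).

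Most genes of glucose uptake and glycolysis fell. All 24 genes of the list passed the filter, 0 rose and 14 fell, against 4.55% and 5.63% of all genes tested, with a median log2 change of -0.75 against 0.05 over all genes tested. The count was 14 without vehicle replicate 5 and 8 after scaling to equal sums. The transporter gene SLC2A3 (GLUT3) had 9.58, 13.7 and 11 in the mometasone libraries, against 36.6, 64.1, 59.0 and 20.1 in the vehicle libraries, and was 3.40-fold lower without overlap (log2 change -1.77, SE 0.40, adjusted p = 0.000566). HK2, hexokinase 2, had 5.06, 14.3 and 6.54 in the mometasone libraries, against 29.2, 55.1, 39.7 and 11.1 in the vehicle libraries, and was 3.41-fold lower (log2 change -1.77, SE 0.44, adjusted p = 0.00228). Its groups overlapped between mometasone replicate 3 and vehicle replicate 5, which do not share a replicate number. In each same-numbered pair HK2 was lower with mometasone.

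SLC2A1 (GLUT1) had 45.7, 96.8 and 45.6 in the mometasone libraries, against 135, 292, 155 and 81.9 in the vehicle libraries, with an overlap of the same libraries, and was 2.52-fold lower (adjusted p = 0.00553). It too was lower with mometasone in each same-numbered pair. Its adjusted p was 0.0621 to 0.0689 without mometasone replicate 2 or 4 or vehicle replicate 3. LDHA, which makes lactate, had 446, 796 and 488 in the mometasone libraries, against 972, 2439, 1260.05 and 919 in the vehicle libraries, and was 2.31-fold lower (log2 change -1.21, SE 0.30, adjusted p = 0.00196). Replicate 3 was the highest of each group for all 4 of these genes. PFKP, a phosphofructokinase, had 59.3, 76.0 and 72.0 in the mometasone libraries, against 158, 167, 156 and 144 in the vehicle libraries (log2 change -1.17, SE 0.19, adjusted p = 9.96e-07). PKM, pyruvate kinase, had 455, 524 and 499 in the mometasone libraries, against 989.6, 1160.2, 915 and 1117 in the vehicle libraries (log2 change -1.08, SE 0.15, adjusted p = 4.59e-09). ENO1, enolase, fell as well (log2 change -1.02, adjusted p = 3.02e-06), and GAPDH did not pass (-0.53, 0.107).

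**Figure D3:**
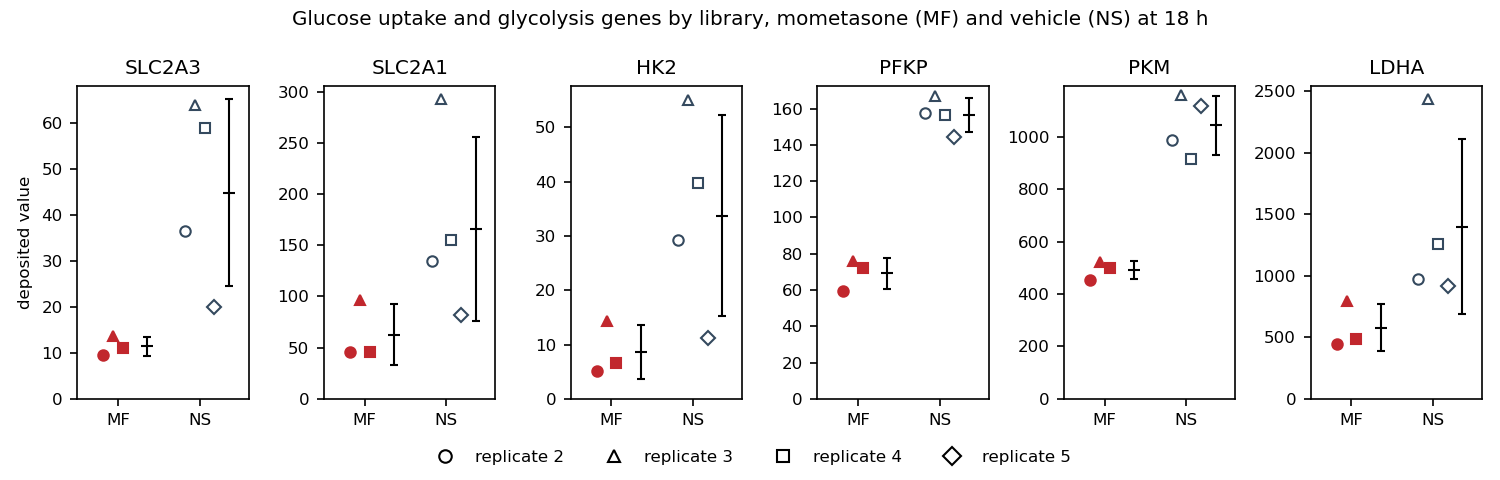
Deposited values of 6 genes of glucose uptake and glycolysis in each 18 h library, mometasone (MF, n = 3) left of vehicle (NS, n = 4), with symbols for the replicate number and a bar for the mean ± SD. PFKP and PKM separate fully, while mometasone replicate 3 lies above vehicle replicate 5 for HK2 and SLC2A1.

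Other pathways of energy and lipid metabolism had few calls, with 4.55% of all genes tested called higher and 5.63% lower. Of 24 tested genes of the tricarboxylic acid cycle 0 rose and 1 fell (0 without mometasone replicate 3 or vehicle replicate 5), and of 37 respiratory chain subunits 0 rose and 2 fell, UQCRFS1 (-0.52) and COX7A2 (-0.49). Of the 37 subunits, 34 had a negative log2 change, with a median of -0.26 against 0.05 over all genes tested. The called falls were 4 without vehicle replicate 2 and 0 without vehicle replicate 5. Both calls were lost without mometasone replicate 3 or 4 or vehicle replicate 5 (adjusted p = 0.0626 to 0.211 for UQCRFS1), and that of COX7A2 also without vehicle replicate 3 (adjusted p = 0.0537 to 0.2). Of 21 fatty acid oxidation genes 2 rose. ACSL1, which activates fatty acids, had 67.6, 59.9 and 71.2 in the mometasone libraries, against 15.4, 13.7, 16 and 12.9 in the vehicle libraries, a 4.34-fold rise (log2 change 2.12, SE 0.15, adjusted p = 4.01e-25). PDK4, a kinase that inhibits pyruvate dehydrogenase, averaged 2.44 ± 0.252 with mometasone and 0.133 ± 0.0714 with vehicle (SD, n = 3 and 4) (log2 change 1.6, adjusted p = 0.00144). PDK4 passed the filter on low values only through the mometasone libraries, so the count of rises in fatty acid oxidation is a description. Of 26 cholesterol synthesis genes 0 rose and 2 fell, with a median log2 change of -0.39. The largest change was that of FDPS, farnesyl diphosphate synthase (-1.06), which was lost without mometasone replicate 3 (adjusted p = 0.0811), and 3 genes fell without vehicle replicate 4. HMGCS1 (-1, adjusted p = 0.3) and INSIG1 (-0.99, 0.0878) did not pass. Of 18 genes of lipid storage and synthesis, 1 rose, LPIN1, a phosphatidate phosphatase (1.79, 0.00182). 4 fell, among them G0S2, an inhibitor of fat breakdown (-1.08, 0.000866). Without mometasone replicate 2, 2 fell, without vehicle replicate 5, 3 fell, and without mometasone replicate 4, 2 rose.

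Of 33 tested cell cycle genes 1 rose and 3 fell (1 and 2 without vehicle replicate 5), against 4.55% and 5.63% of all genes tested. CCND1, cyclin D1, had 3.55, 3.88 and 3.93 in the mometasone libraries, against 19.5, 20, 15.9 and 19.3 in the vehicle libraries, and was 4.10-fold lower without overlap (log2 change -2.04, SE 0.21, adjusted p = 6.35e-15). CDKN1C, the cyclin-dependent kinase inhibitor p57, had 15.4, 13.9 and 14.6 in the mometasone libraries, against 3.05, 2.43, 2.92 and 4.20 in the vehicle libraries, a 3.81-fold rise (log2 change 1.93, SE 0.38, adjusted p = 5.82e-05), while the inhibitor CDKN2B fell (log2 change -1.17, adjusted p = 0.00149). Of 19 apoptosis regulators 6 rose and 0 fell, against the same shares, and 2 fell without vehicle replicate 3. The 6 held both promoters and inhibitors of cell death. HRK, a pro-apoptotic BH3 protein, had 7.70, 8.03 and 7.71 in the mometasone libraries, against 1.35, 0.91, 0.9 and 2.14 in the vehicle libraries, a 3.87-fold rise (log2 change 1.95, SE 0.27, adjusted p = 1.94e-09). BMF, another BH3 protein (1.56 on the log2 scale), the death receptor gene FAS (1.29), and the inhibitors CFLAR (1.27) and MCL1 (0.78) rose with BIRC3.

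In the list of IGF-binding proteins and insulin signalling, 3 of 12 tested genes rose and 3 fell (2 and 2 without vehicle replicate 5), against 4.55% and 5.63% of all genes tested. IRS2, an adaptor of the insulin receptor, had 42.0, 48.3 and 48.7 in the mometasone libraries, against 12.9, 12.6, 13.0 and 4.77 in the vehicle libraries, a 4.25-fold rise (log2 change 2.09, SE 0.37, adjusted p = 3.65e-06), and IGFBP5, a binding protein, had 0.26, 0.25 and 0.15 in the mometasone libraries, against 1.93, 1.47, 1.82 and 1.22 in the vehicle libraries (log2 change -1.09, SE 0.18, adjusted p = 4.75e-07). IGFBP5 passed the filter on low values only through the vehicle libraries, so the count of falls is a description. Of 20 tested genes of the ATF4 amino acid response, 3 rose and 3 fell (3 and 2 without vehicle replicate 5), led by DDIT4, an inhibitor of mTORC1 that rose 3.5-fold (log2 change 1.81, SE 0.24, adjusted p = 1.19e-09), and SLC7A5, an amino acid transporter that was 2.30-fold lower (log2 change -1.20, SE 0.15, adjusted p = 1.45e-10). Of 25 interferon-stimulated genes 2 rose and 0 fell, against 4.55% and 5.63% of all genes tested. The counts were 1 and 0 without vehicle replicate 5, and 2 fell without vehicle replicate 3. Of the 25, 20 had a negative log2 change, with a list median of -0.12. The 2 that rose were STAT2 (0.80, adjusted p = 0.00044) and IFI44L. The adjusted p of IFI44L was 0.058 to 0.198 without any 1 of mometasone replicates 3 and 4 or vehicle replicates 2, 3 and 5. Of 17 genes of the receptor, its chaperones and steroid enzymes, 2 rose and 4 fell (1 and 2 without vehicle replicate 5 or mometasone replicate 3). HSP90AA1, which holds the unbound receptor, had 398, 404 and 416 in the mometasone libraries, against 746, 887, 723 and 736 in the vehicle libraries, and was 1.90-fold lower (log2 change -0.92, SE 0.17, adjusted p = 1.15e-05). Of 15 tested receptors and transducers of bronchodilator signals 0 rose and 1 fell, RGS4, a regulator of G proteins that was near 1 with vehicle (log2 change -0.93). Its adjusted p was 0.0514 to 0.0787 without mometasone replicate 2 or 4.

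The response at 18 h was set against earlier times in the same cells. Mometasone alone gave 59 higher (0.452%) and 8 lower (0.0612%) calls at 1 h (together 0.513%), 213 (1.63%) and 76 (0.582%) at 2 h (together 2.21%), and 762 (5.83%) and 624 (4.78%) at 6 h (together 10.6%). Of the 595 genes higher at 18 h, 357 were also called higher at 6 h, which is 60.0% of the 18 h calls and 46.9% of the 6 h calls. Of the 736 genes lower at 18 h, 349 were called lower at 6 h (47.4% and 55.9%). The difference of the effects, 18 h minus 6 h, was tested directly with 5 libraries of each group at 6 h. It was called for 93 genes (0.712%), 20 in the higher direction (0.153%) and 73 in the lower (0.559%). Without mometasone replicate 3 at 18 h these were 9 and 39, without vehicle replicate 5 at 18 h 15 and 59, without mometasone replicate 4 at 18 h the 20 were 11, without replicate 4 of both groups at 6 h the counts were 12 and 48, and after scaling to equal sums they were 38 and 29.

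With the values as deposited, most of the 93 were later or deeper falls. This lean depends on scaling, since equal sums gave 38 higher and 29 lower. 30 genes fell at 18 h with no call at 6 h, and 21 that fell at both times fell further by 18 h. NPPB had 9.86 ± 3 with mometasone and 93.5 ± 24.2 with vehicle at 6 h (SD, n = 5 each here and below), and the change in effect was -1.65 (SE 0.39, adjusted p = 0.0133) on the log2 scale. CPA4 had 50.6 ± 8.59 with mometasone and 129 ± 38.3 with vehicle at 6 h, with a change in effect of -2.30 (SE 0.36, adjusted p = 3.34e-06). For PSG5 the change was -1.89 (SE 0.23, adjusted p = 6.23e-10), and PSG9, PSG2 and PSG1 were called likewise. KRT17, whose log2 change at 6 h was -0.49, had a change in effect of -1.82 (SE 0.38, adjusted p = 0.00187). Of the glycolysis list, 6 of 24 genes fell at 6 h. The log2 changes at 6 and 18 h were -1.68 and -1.77 for SLC2A3, and -1.99 and -1.77 for HK2. PFKP, PKM and ENO1 fell at 18 h alone, with changes in effect of -1.14 (SE 0.25, adjusted p = 0.00486), -0.86 (SE 0.20, adjusted p = 0.00724) and -0.85 (SE 0.23, adjusted p = 0.0485). KISS1, the precursor of kisspeptin, chosen after its values were seen, had 136, 98.5 and 118 in the mometasone libraries, against 480.1, 625, 491 and 1149 in the vehicle libraries, and 542 ± 223 with mometasone and 608 ± 125 with vehicle at 6 h, with a change in effect of -2.22 (SE 0.36, adjusted p = 1.47e-05).

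Early targets did not all persist alike. 5 genes that rose at both times rose less at 18 h, among them PER1, MT1X and MT2A. The change in effect was -1.16 (SE 0.25, adjusted p = 0.00357) for PER1, -1.95 (SE 0.48, adjusted p = 0.0185) for MT1X and -1.55 (SE 0.40, adjusted p = 0.0288) for MT2A. Over 1, 2, 6 and 18 h the log2 change of PER1 was 3.19, 3.31, 2.93 and 1.77, and that of MT1X was 1.54, 2.80, 4.05 and 2.10. TSC22D3 had 4.04, 5.17, 5.79 and 5.42, and the difference from its effect at 6 h was not called (adjusted p = 0.797). Another 13 genes rose at 6 h with no call at 18 h. FSTL3, which binds activin and was chosen after its values were seen, had 49.3, 44.2 and 60.3 in the mometasone libraries, against 48.2, 51.6, 58.3 and 51.2 in the vehicle libraries, and 93.6 ± 9.38 with mometasone and 44.2 ± 3.69 with vehicle at 6 h, with a change in effect of -1.10 (SE 0.19, adjusted p = 2.72e-05). 8 genes rose further by 18 h. ZBTB16, with log2 changes of 0.00, 0.43, 1.96 and 3.36 over the 4 times, had a change in effect of 1.40 (SE 0.26, adjusted p = 0.000196). SVEP1, an extracellular matrix protein, and ADH1B, an alcohol dehydrogenase, also chosen after their values were seen, had changes of 1.32 (SE 0.23, adjusted p = 6.66e-05) and 1.16 (SE 0.16, adjusted p = 1.87e-07). WNT5B, a secreted Wnt ligand chosen in the same way, was higher at 6 h (0.39) and lower at 18 h (-0.97), and 3 genes in all changed sign in this manner.

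**Figure D4:**
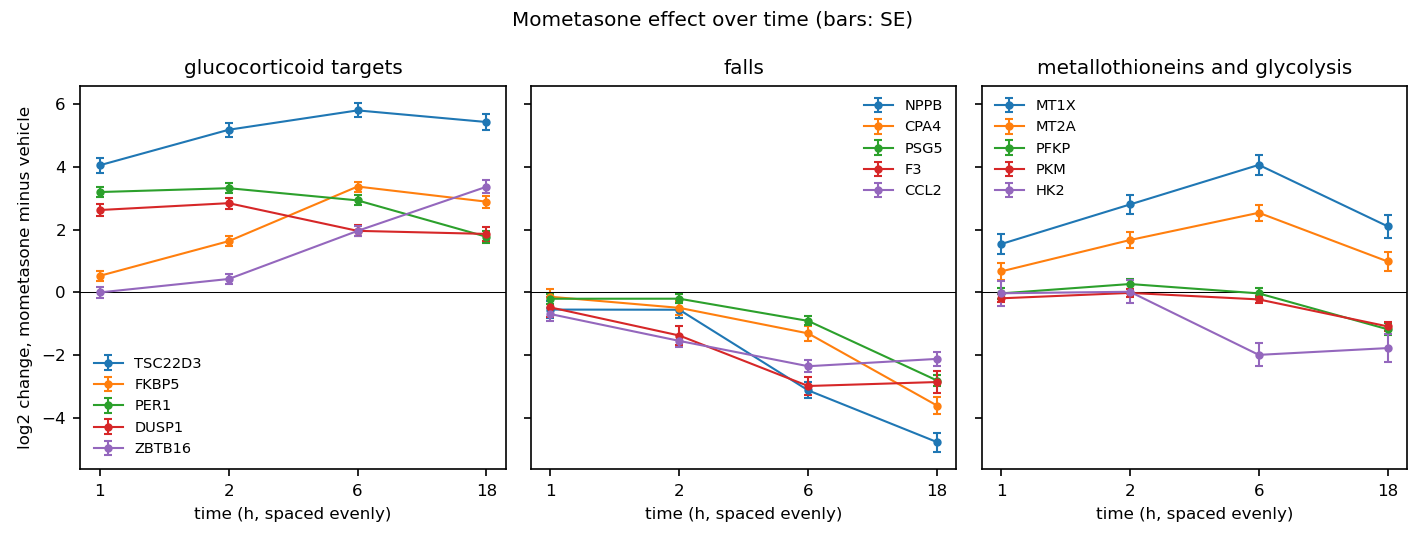
Log2 change of mometasone minus vehicle (± SE) in order of time (1, 2, 6, 18 h; evenly spaced), for glucocorticoid targets, for falls, and for metallothioneins and glycolysis genes. NPPB, CPA4 and PSG5 lie lower at 18 h than at 6 h, MT1X and PER1 lie closer to 0, and HK2 is at -1.99 and -1.77 at 6 and 18 h.

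The effect of mometasone at 18 h was also measured on top of the other agents, in libraries that the vehicle comparison does not use but that carry the same replicate numbers. Mometasone added to indacaterol gave 728 higher (5.57%) and 786 lower (6.02%) calls, together 11.6%. Added to carbachol it gave 678 (5.19%) and 828 (6.34%), together 11.5%, and added to both 531 (4.06%) and 675 (5.17%), together 9.23%. Without replicate 3 the 531 were 339. Of the 595 genes higher with mometasone alone, 451 were higher on carbachol (75.8% of those alone and 66.5% of those on carbachol), 423 on indacaterol (71.1% and 58.1%) and 353 on both (59.3% and 66.5%). Of the 736 lower, 600 were lower on carbachol (81.5% and 72.5%), 549 on indacaterol (74.6% and 69.9%) and 484 on both (65.8% and 71.7%). In all 4 backgrounds 323 genes were called higher and 452 lower.

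Values of single genes on indacaterol, on carbachol and on both stand beside those on vehicle below, and differences between backgrounds were not tested. TSC22D3, at 5.42 on vehicle, had 5.58, 5.40 and 5.53. CPA4, at -3.6, had -3.5, -3.78 and -3.56, and PSG5, at -2.80, had -2.86, -2.76 and -2.98. NPPB, at -4.76 on vehicle, had -2.88, -4.59 and -2.89, and F3, at -2.85, had -2.04, -2.94 and -2.07. DUSP1, at 1.86, had 1.10, 1.52 and 1.36. AREG, which rose on vehicle (1.04), had -0.45, 0.49 and -0.46 (adjusted p = 0.194, 0.142 and 0.295). Of the 595 and 736 genes, 595 and 734 kept the sign of their change on carbachol, 590 and 724 on indacaterol and 587 and 730 on both.

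**Figure D5:**
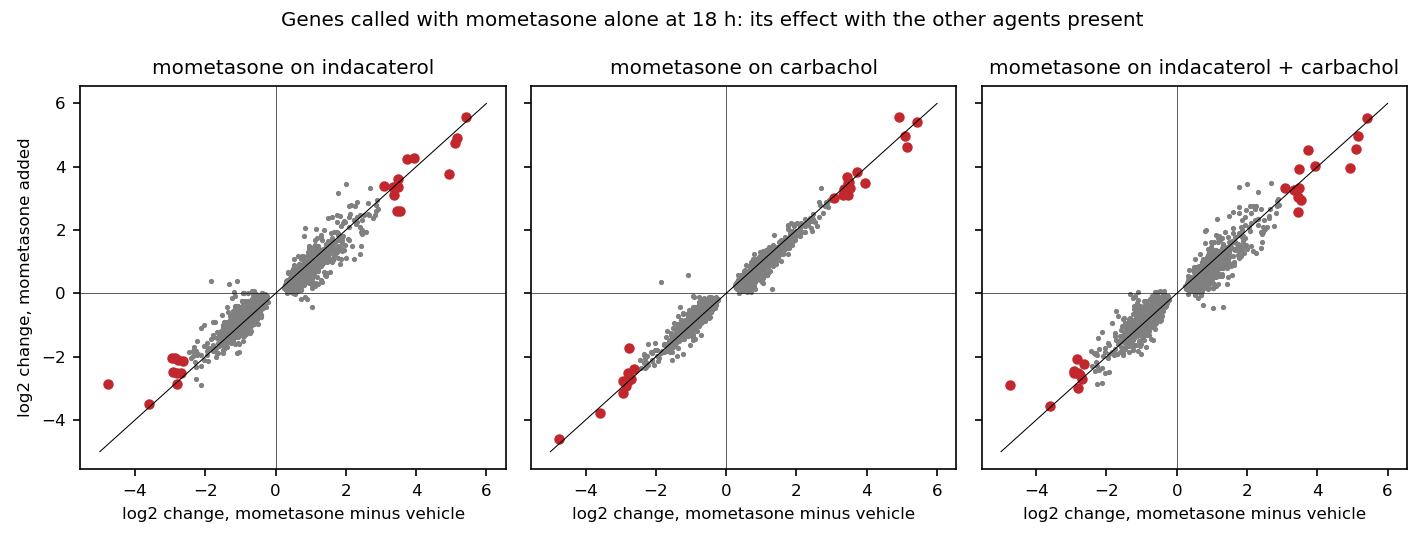
Log2 change of mometasone added to indacaterol, carbachol or both (vertical) against that of mometasone minus vehicle (horizontal) at 18 h, for the 1331 genes called on vehicle, with the 24 largest changes in red and the line of equal change. NPPB lies at -4.76 on vehicle and at -2.88, -4.59 and -2.89 on the 3 backgrounds, and 595 higher and 734 lower genes keep their sign on carbachol.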

How the data were processed

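RNA of BEAS-2B cells was extracted with NucleoSpin kits and sequenced from TruSeq libraries on a NextSeq 500 with either of 2 kits, per the labels' protocols, with no record of which sample used which. Reads were converted with bcl2fastq 2.17.1.14 and aligned with STAR 2.4.2a to GRCh38, per the submitters' processing notes. For the quantifier, annotation, strand setting and scaling, nothing was given in the sources used. The deposited values are a normalised signal per gene that the authors call TPM, although their sums per library, 847289 to 1498421 (median 961146), differ from each other, so they were treated as a normalised signal of unknown depth and no counting interval is given. The design was written for TPM values, and the same test was used.

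Of 160 labelled samples, 150 had a column in use. The 10 columns not used were 4 that the authors marked as excluded and 6 headed 8 h. Values were taken as log2(value + 1), and 13067 of 29273 genes reached a value of 1 in 3 or more of the 7 libraries (16206 were left out). A gene low in either group could pass this filter through the other group alone, so counts of list members are descriptions. A limma 3.58.1 model (R 4.3.3) with 32 groups was fitted to the 150 libraries (118 residual degrees of freedom) with an intensity trend, and p-values were adjusted by Benjamini-Hochberg over all tested genes, with calls at 0.05. Fitting all groups assumes that they share one spread per gene. The code was tested on simulated data. Scaling, pseudocount, filter, mitochondrial share, the samples fitted, a replicate term and leaving out each library were varied.

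The comparison and the gene lists were chosen with earlier results of these data known. The 14 largest rises and the 10 largest falls were ranked by log2 change among called genes. For these genes, all 3 same-numbered pairs of libraries had to differ in the direction of the change. Up to 4 members of each of 31 lists are named as well, by size of change. List members outside that rule that are named by their count, and genes said to be so, were chosen after their values were seen. Gene positions are those of GENCODE 29 (GRCh38), and sequences those of RefSeq (GRCh38.p14). Some genes of the lists are not reported here.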

Additional observations from a re-analysis of the deposited data

Results flagged for a closer look

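In the vehicle group at 18 h, 5 values stood apart from the other 3 libraries by more than Dixon's 95% limit for 4 samples. Of 29 sets of 4 values checked, chance marks about 1 in 20. SCNN1A was 2.12 in replicate 3, CPA4 was 162 in replicate 3 and PER1 was 32.6 in replicate 4, each above the other vehicle libraries. NPPB was 52.3 in replicate 2, below the others. All 4 genes stayed called without any 1 library, and their groups did not overlap. The sum of values was 1251034 in replicate 5. Its share of mitochondrial values was 13.3%, against 8.82% to 11.1% in the other vehicle libraries, and its median ratio to the geometric mean of all libraries in use was 0.93, against 1.02 to 1.10. Its part in the results was not tested beyond leaving it out.

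The effect of mometasone at 18 h minus that at 6 h passed limma's test for 9 of the 27 genes checked. On the log2 scale the difference was 1.40 for ZBTB16. It was negative for NPPB (-1.65), CPA4 (-2.30), CPA3 (-1.82), PSG9 (-1.78), PSG5 (-1.89), PSG2 (-1.89) and PSG1 (-1.72), which were called lower at both times, and for PER1 (-1.16), which was higher at both times.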

How the results depend on the processing

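The counts of calls depended on how the spread was estimated. With only the libraries of the groups compared, mometasone against vehicle gave 255 higher and 306 lower, and 549 of the 1331 calls were shared. There, the difference from 6 h gave 5 and 41, mometasone on indacaterol 392 and 495, on carbachol 415 higher, and on both 191 and 228. The difference from 6 h gave 33 and 110 with only libraries of the times compared, 40 higher with a pseudocount of 5, 60 higher with no filter, and 37 and 115 with the mitochondrial share as a covariate. Scaling to equal sums gave 384 lower for mometasone against vehicle, and 38 and 29 for the difference from 6 h.

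Leaving out 1 library at a time gave 373 to 679 higher and 516 to 751 lower for mometasone against vehicle. Leaving out 1 library at 18 h, or 1 replicate number of both groups at 6 h, gave 9 to 21 and 39 to 76 for the difference from 6 h (12 and 48 without replicate 4 at 6 h). Leaving out 1 replicate number from all 18 h groups with indacaterol or carbachol gave 505 to 603 and 599 to 744 on indacaterol, 481 to 574 and 625 to 780 on carbachol, and 339 to 529 and 461 to 673 on both. Leaving out replicate 5 of every treatment and time, chosen after seeing the data, gave 528 higher and 775 lower. Of 2640 pairs of a named gene and a setting, 2443 kept their call or lack of one, 119 lost it, 77 gained it and 1 changed sign: MYH11, not called, was 0.11 on the log2 scale with every library, -0.0552 without mometasone replicate 3 and up to 0.26 without another library. The cause was not tested.

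With the replicate number as a block, mometasone against vehicle gave 1252 higher and 1695 lower, which held all 1331 calls. The block gave 207 and 552 for the difference from 6 h, 1805 and 1795 on indacaterol, 1638 and 1756 on carbachol, and 1602 and 1650 on both. The labels do not say that a number marks a shared culture, and the deviations of same-numbered mometasone and vehicle libraries correlated at 0.0562, 0.524 and -0.0127 for replicates 2, 3 and 4. Mometasone replicate 2 correlated best with vehicle replicate 5 (0.320). Vehicle deviations were taken from the mean of 4 libraries with replicate 5, and mometasone deviations from that of 3 without it. Low correlations therefore cannot decide whether pairs deviated together. The reported calls do not match libraries by number. As a hint from the data that some numbers mark more, replicate 5 had the lowest median ratio (0.926 to 0.97) and the largest sum of its group in every 18 h group that has it, and replicate 3 the highest median ratio (1.074 to 1.141) in every 18 h group. Depth is unknown, so its limit on low genes cannot be given.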
